A study of Homo sapiens with 21 samples.

Results

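The 46 genes followed here encode the machinery that copies DNA in S phase: origin licensing factors, the replicative helicase and its activators, DNA polymerases and primase, the sliding clamp and its loader, enzymes that join the lagging strand and supply nucleotides, histone chaperones, and the regulators of entry into S phase. They were taken by symbol from the 23201 gene symbols of an RNA-seq time course, and the 46 symbols each matched 1 row. The rule held no measured value, but the list was chosen with earlier results of these data known. HMLE cells, an immortalized human mammary epithelial line, were either untreated (d0) or given TGFβ for 1, 4, 7, 10, 15 or 20 days (d1 to d20), with 3 libraries at each of the 7 timepoints. The study used this treatment to follow epithelial cells through epithelial-to-mesenchymal transition (EMT) and describes the libraries as biological triplicates. The labels add no further allele, compound or TGFβ dose. All wells were seeded at the same density, and neither passage nor density at harvest is given in the sources used here. The only untreated group was d0, so TGFβ and days in culture cannot be told apart.

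Before DNA is copied, the origin recognition complex, CDC6 and CDT1 load the ring of MCM2 to MCM7 onto origins in G1, and CDC45 and the GINS complex then turn that ring into the working helicase. Transcription of many of these genes is driven at the G1 to S transition by activating E2F factors, which the retinoblastoma protein (RB) holds back until cyclin-dependent kinases inactivate it. TGFβ is known as an inhibitor of epithelial cell division that acts in G1. HMLE cells limit the model in this respect, because the line was immortalized with telomerase and the SV40 early region, whose large T antigen binds RB. In bulk RNA, fewer cells in S phase and less replication RNA per cell cannot be told apart.

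The promoters of these genes are shown first because the E2F motif is a known feature of many genes switched on for S phase. RefSeq promoter windows (GRCh38.p14, 250 bases before to 50 bases after the transcription start) were found for 41 of the 46 genes, the others being MCM4, MCM5, GINS4, POLD3 and CCNE2. The motif was searched as TTTCCCGC, TTTCGCGC, TTTGGCGC or TTTGCCGC on both strands. It occurred in the windows of 22 of the 41 genes (53.7%), against 612 of 9253 genes tested below that had a window (6.61%) and 1090 of the 27305 genes with any window (3.99%). Of the 30 matches, 21 lay between positions -60 and 20 relative to the start, as the plot of motif positions shows. A match describes these letters only, and binding was not measured. The sequences below are 150 bases, 5′ to 3′ on the strand of the gene, from position -130 to 20, except MCM6, which is shown from -170 to -21. Capitals mark motif matches on either strand. The MCM2 and MCM6 matches each pair overlapping copies on opposite strands, E2F1 and E2F2 are themselves E2F genes, and CCNE1 is shown as a member without a match in its window.
E2F1, chr20:33686366-33686515, minus strand: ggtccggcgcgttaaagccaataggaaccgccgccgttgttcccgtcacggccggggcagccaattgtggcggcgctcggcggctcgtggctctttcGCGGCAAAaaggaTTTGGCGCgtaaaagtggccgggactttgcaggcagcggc
E2F2, chr1:23531214-23531363, minus strand: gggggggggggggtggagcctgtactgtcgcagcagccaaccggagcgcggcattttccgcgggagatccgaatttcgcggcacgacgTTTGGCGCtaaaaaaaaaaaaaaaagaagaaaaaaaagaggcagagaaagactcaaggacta
CDC6, chr17:40287749-40287898, plus strand: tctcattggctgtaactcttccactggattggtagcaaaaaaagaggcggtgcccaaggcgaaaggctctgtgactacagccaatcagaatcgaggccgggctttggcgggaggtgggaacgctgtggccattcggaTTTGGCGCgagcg
MCM2, chr3:127598281-127598430, plus strand: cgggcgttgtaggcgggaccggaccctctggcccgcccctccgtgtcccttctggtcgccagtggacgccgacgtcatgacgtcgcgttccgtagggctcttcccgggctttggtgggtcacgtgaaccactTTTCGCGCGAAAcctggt
MCM6, chr2:135876464-135876613, minus strand: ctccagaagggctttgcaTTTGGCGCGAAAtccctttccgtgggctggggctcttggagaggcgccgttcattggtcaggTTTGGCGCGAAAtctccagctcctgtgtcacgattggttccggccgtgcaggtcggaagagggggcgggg
PCNA, chr20:5126603-5126752, minus strand: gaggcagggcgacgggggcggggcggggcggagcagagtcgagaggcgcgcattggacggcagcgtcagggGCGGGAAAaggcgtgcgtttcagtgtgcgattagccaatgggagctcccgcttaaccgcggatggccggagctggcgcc
CCNE1, chr19:29811861-29812010, plus strand: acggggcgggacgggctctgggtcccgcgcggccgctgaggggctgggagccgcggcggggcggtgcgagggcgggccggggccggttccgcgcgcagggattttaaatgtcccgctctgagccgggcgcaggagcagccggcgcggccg

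**Figure D1:**
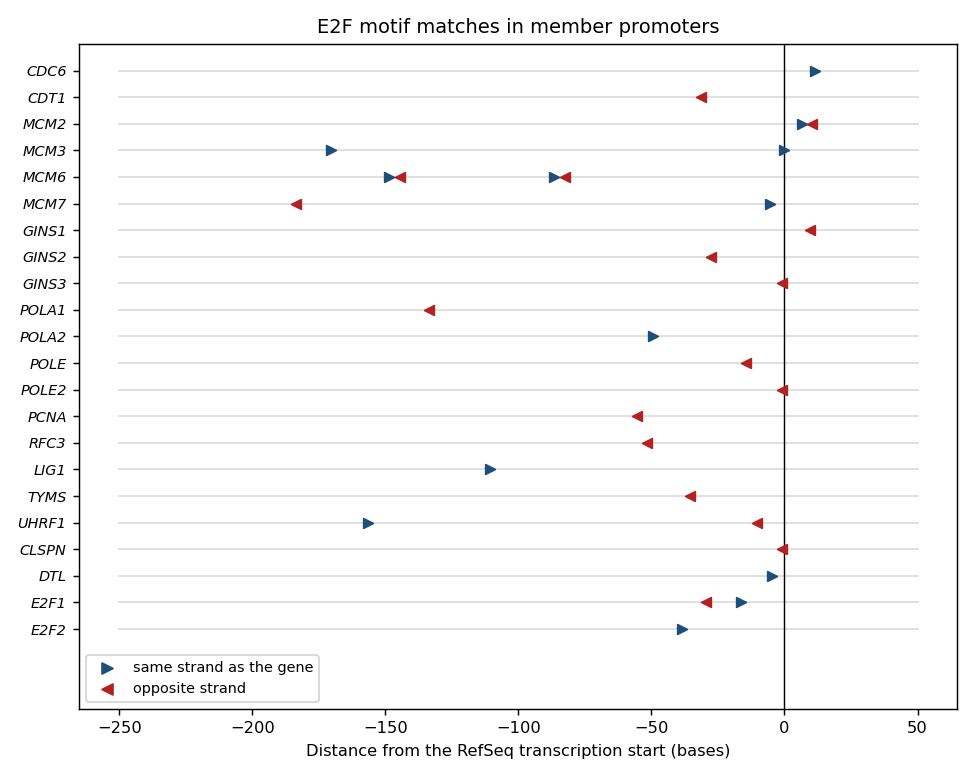
Positions of the E2F motif in the promoter windows of the 22 members that had a match. The x axis is the distance in bases from the RefSeq transcription start, grey lines span the 300-base windows and arrows give the strand of each of the 30 matches, most of which lie close to the start.

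The values analysed are the deposited normalized signals, which are whole reads divided by 1 size factor per library, and the libraries held between 18847917 and 22667754 reads over all genes. Depth therefore allowed each member to be tested: the mean over the 21 libraries reached the minimum used, a value of 10, for all 46. Tests were made with limma on log2(value + 1) for 13343 genes, and a gene was called higher or lower at a Benjamini-Hochberg adjusted p under 0.05. Fold changes are on that log2 scale, with standard errors (SE). The basal epithelial keratin KRT5 had values of 100457 or more in every library, with means of 224349 at d0, 243157 at d7 and 101276 at d10. Epithelial genes differed: from d0 to d20 the EPCAM mean went from 2106 to 402 and that of CDH1 from 7195 to 2868. KRT18 went from 7357 to 4872 and KRT8 from 7955 to 7818. The immune and endothelial markers PTPRC, CD3E and CDH5 reached at most 1.06. Other genes of those lists were detected, with CD68 at 342 to 818, LYZ at 5.84 to 25.1, VWF at 2.09 to 11.6 and PECAM1 at 4.17 to 43.3. The PECAM1 mean was 41.3 at d0 and between 9.06 and 14.7 on the treated days, and its part in the results was not tested. The mesenchymal genes VIM and FN1 had their lowest values at d0, with means of 5181 and 4243 there and 63815 and 539309 at d20. The third d7 library in column order stood apart, with a root mean square log2 difference of 0.472 and 0.457 from the other two, against 0.214 to 0.243 for all other pairs within a timepoint. The counts and medians of all members that involve d7 are therefore also given without it. Values of single genes, of roles and of the 2-fold minimum include it.

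The replication genes did not move one way over the time course. Their median log2 difference from untreated cells, 0.022 on d1, went to -0.91 by d4 and -0.60 by d7. It then stood at 0.15 on d10, -2.01 on d15 and -0.19 on d20, while the median of all genes tested stayed between 0 and 0.031. Taken library by library, the member medians of d15 were -2.04, -2.00 and -1.94, below every other library of the series, and those of d10 were 0.13, 0.16 and 0.16. The lowest timepoint mean fell on d15 for 44 of the 46 members. The exceptions were TYMS, lowest at d4, and CCNE1, lowest at d7. The highest mean fell on d10 for 28 members, d0 for 11, d1 for 4 (ORC1, MCM5, MCM6 and GINS1) and d20 for 3 (PRIM2, TYMS and TK1). The share of all genes with their lowest or highest mean on each timepoint was not counted.

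**Figure D2:**
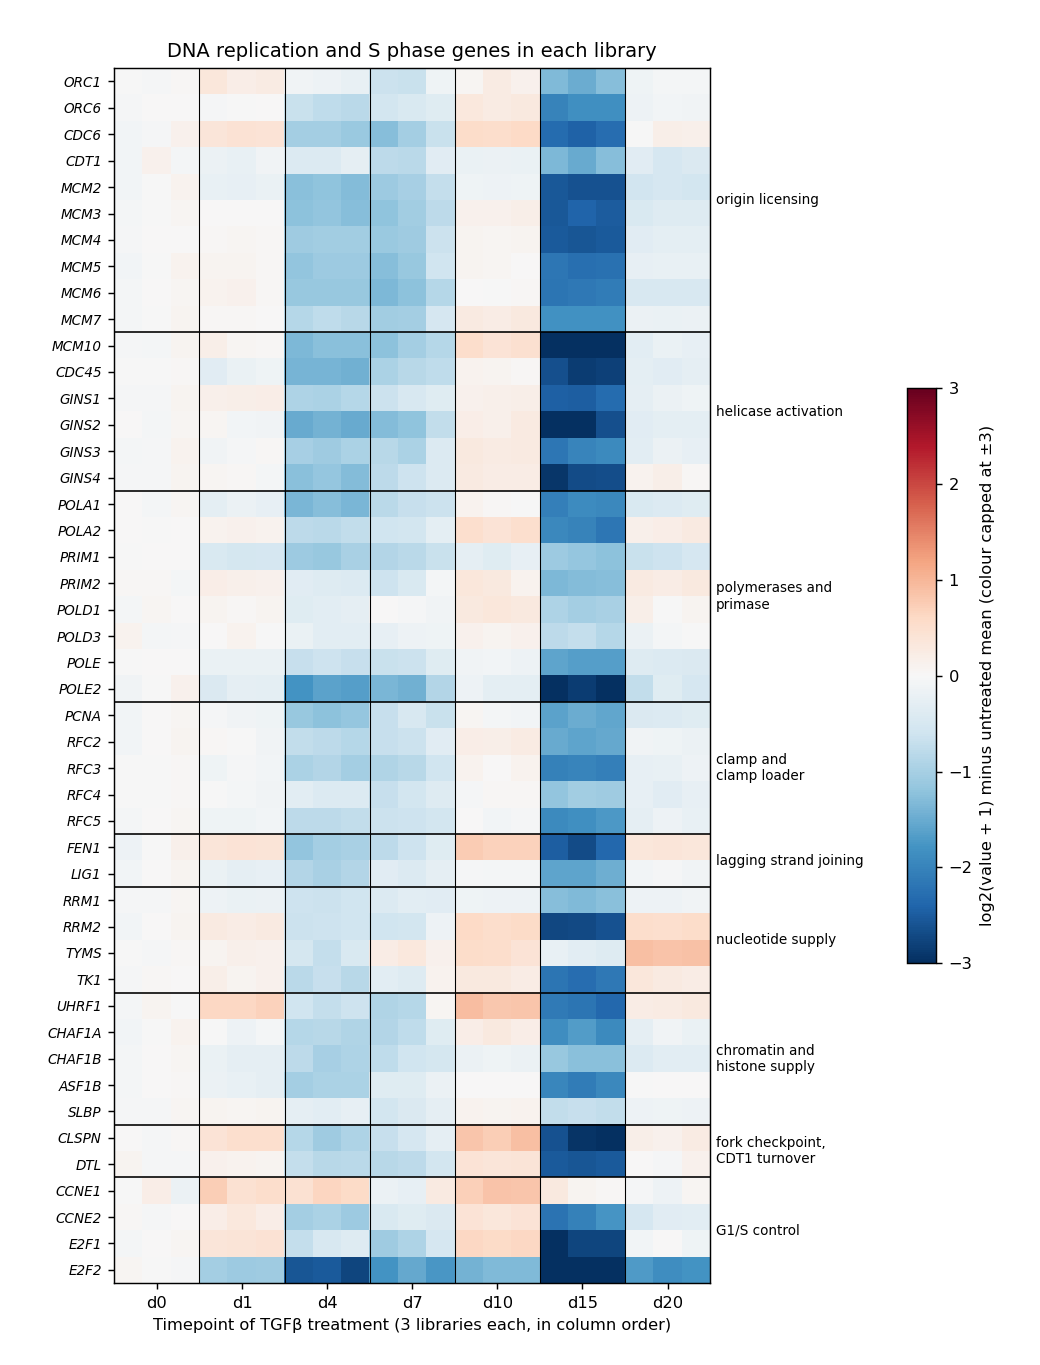
Each of the 46 members (rows, grouped by role) in each of the 21 libraries (columns) as log2(value + 1) minus the mean of the 3 untreated libraries, with colours capped at ±3. The d15 columns are blue for nearly all rows, the d4 and d7 columns are paler blue, and the d10 columns are near white or red except for E2F2.

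After 1 day of TGFβ most members had no call. Of the 46 members 10 were called higher, 10 lower and 26 neither. The background was 31.3% higher and 28.5% lower among all genes tested, so both shares of the members lay below it. The 10 that rose were ORC1, CDC6, GINS1, FEN1, RRM2, UHRF1, CLSPN, CCNE1, CCNE2 and E2F1. UHRF1, which reads hemimethylated DNA behind the fork, rose most, from 1691, 1853 and 1744 at d0 to 2709, 2731 and 2833 at d1 (log2 0.65 ± 0.15 SE, limma adjusted p = 0.000669). Its d1 values were all above its d0 values. CLSPN, the claspin adaptor of the replication checkpoint, rose by log2 0.48 ± 0.11 SE and CDC6 by 0.40 ± 0.096 SE. E2F2 was the only member to fall by more than 2-fold at d1, from 381, 363 and 356 to 179.9, 172 and 176 (-1.06 ± 0.13 SE, limma adjusted p = 7.2e-07). PRIM1, the catalytic primase subunit, fell by log2 0.50 and MCM2 by 0.22. The day 1 counts depended on scaling. With libraries rescaled to the same total the counts were 3 higher and 25 lower, and with quantile normalization 7 and 16. Among the 13343 genes tested, 2436 were higher and 6692 lower with equal totals, and 3390 and 4642 with quantile normalization. With equal totals the member median turned to -0.172 at d1, and with quantile normalization to -0.077. Equal totals also shifted the median of all genes against d0, by between -0.159 (d15) and -0.227 (d10) across the treated days. UHRF1 and CLSPN kept their calls under both scalings, whereas ORC1, CDC6, FEN1, RRM2, CCNE2 and E2F1 lost theirs with equal totals and GINS1 turned to -0.012.

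By day 4 nearly the whole group was lower. Against d0, 44 of 46 members fell and 1 rose, with a background of 35.3% lower and 36.9% higher, and 18 members fell by at least 2-fold against 5.03% of all genes. In the step from d1 to d4, 44 members were lower and 0 higher (32.0% and 32.9% of all genes), 19 of them lower by at least 2-fold (1.98% of all genes). CDT1 and CCNE1 were the members without a call in that step, with limma adjusted p of 0.067 and 0.887. Helicase activation genes had the lowest median of the roles at d4, -1.26 on the log2 scale, with all 6 lower, and nucleotide supply genes had -0.62, with all 4 lower. GINS2, a subunit of the GINS complex, went from 1132, 1092 and 1172 at d0 to 394, 424 and 397 at d4 (log2 -1.48 ± 0.11 SE). PCNA, the sliding clamp that holds polymerases on DNA, went from 3503, 3707 and 3865 to 1687, 1564 and 1652 (-1.18 ± 0.053 SE, limma adjusted p = 2.54e-14). The groups of 3 did not overlap for either gene. CCNE1, the cyclin E1 gene, was the 1 member that rose (0.55 ± 0.13 SE), and ORC1, the largest subunit of the origin recognition complex, had no call (-0.15 ± 0.096 SE).

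At day 7 the group remained below untreated cells and had begun to separate from day 4. Against d0, 43 members were lower and 1 higher, with 32.6% and 34.6% of all genes as background. The same counts, 43 and 1, were obtained without the third d7 library, with the median then at -0.69. Of all 13343 genes tested, 4584 were lower and 4915 higher without it. TYMS, thymidylate synthase, was the 1 that rose (0.22 ± 0.064 SE, limma adjusted p = 0.00462), a call that was lost with equal totals (0.029). Against d4, 29 members were higher and 6 lower (25.5% and 25.5% of all genes). The helicase activation genes were all 6 higher than at d4, and ASF1B, a histone chaperone, rose from 913, 956 and 961 to 1447, 1432 and 1632 (0.67 ± 0.049 SE). Lower than at d4 were ORC1, CDT1, RFC4, SLBP, CCNE1 and E2F1, of which only CCNE1 had libraries that did not overlap. The E2F1 call was lost with equal totals and the RFC4 call with quantile normalization. The third d7 library had the highest of the 3 values for 40 of the 46 members (87.0%), against 44.0% of all genes, by a median of 0.29 on the log2 scale over the mean of the other two. UHRF1 differed most, with values of 942, 979 and 1829 at d7. Without that library 24 members were higher and 10 lower than at d4, with a median of 0.15 in place of 0.26. All genes tested then had 3898 higher and 4013 lower. The count of lower members was also sensitive to other libraries, being 3 without the third d4 library, 2 without the first and 1 without the second d7 library. In those settings 3057, 3121 and 3059 of all genes were lower.

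Between days 7 and 10 every member rose. All 46 were called higher and 0 lower, against 36.2% and 35.2% of all genes, and 14 rose by at least 2-fold against 3.63%. The count was 46 also without the third d7 library, with a median of 0.89 in place of 0.80, when 5128 of 13343 genes were higher. CDC6, which helps load the MCM ring, rose most (1.55 ± 0.096 SE), from 579, 694 and 883 to 2043, 2032 and 2131. MCM10, a factor that helps start unwinding, rose from 325, 378 and 423 to 1101, 1017 and 1077 (1.51 ± 0.079 SE), and E2F1 from 227, 253 and 338 to 733, 712 and 734 (1.43 ± 0.12 SE). RRM1, the large subunit of ribonucleotide reductase, rose least (0.22 ± 0.036 SE).

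At day 10 more members lay above untreated cells than below. Against d0, 22 members were higher and 4 lower, with 37.0% and 30.7% of all genes as background. The 4 below d0 were PRIM1, RRM1, CHAF1B and E2F2. Fork checkpoint and CDT1 turnover genes were both higher (CLSPN 0.82 ± 0.11 SE and DTL 0.39 ± 0.062 SE), as were 3 of 4 nucleotide supply genes and 4 of 6 helicase activation genes. In the licensing group 3 of 10 rose, namely ORC6, CDC6 and MCM7, and in the clamp group 1 of 5, RFC2. UHRF1 reached 3329, 3108 and 3131 (0.86 ± 0.15 SE), FEN1, the flap endonuclease, 2739, 2633 and 2613 (0.72 ± 0.089 SE), and CCNE1 142, 157 and 154 (0.80 ± 0.13 SE). For these 3 genes the d10 libraries all lay above the d0 libraries. The surplus over d0 depended on scaling. With equal totals 11 members were higher and 18 lower with a median of -0.074, when the median of all genes was -0.196. Among the 13343 genes tested 2864 were then higher and 6740 lower. With quantile normalization 14 members were higher and 12 lower with a median of 0.033, against 4062 and 4716 of all genes. With equal totals 11 of the 22 had no call above d0, namely ORC6, MCM7, GINS1, GINS3, GINS4, PRIM2, POLD1, RFC2, TK1, CHAF1A and CCNE2. Of these GINS1 and RFC2 changed sign, to -0.075 and -0.02.

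**Figure D3:**
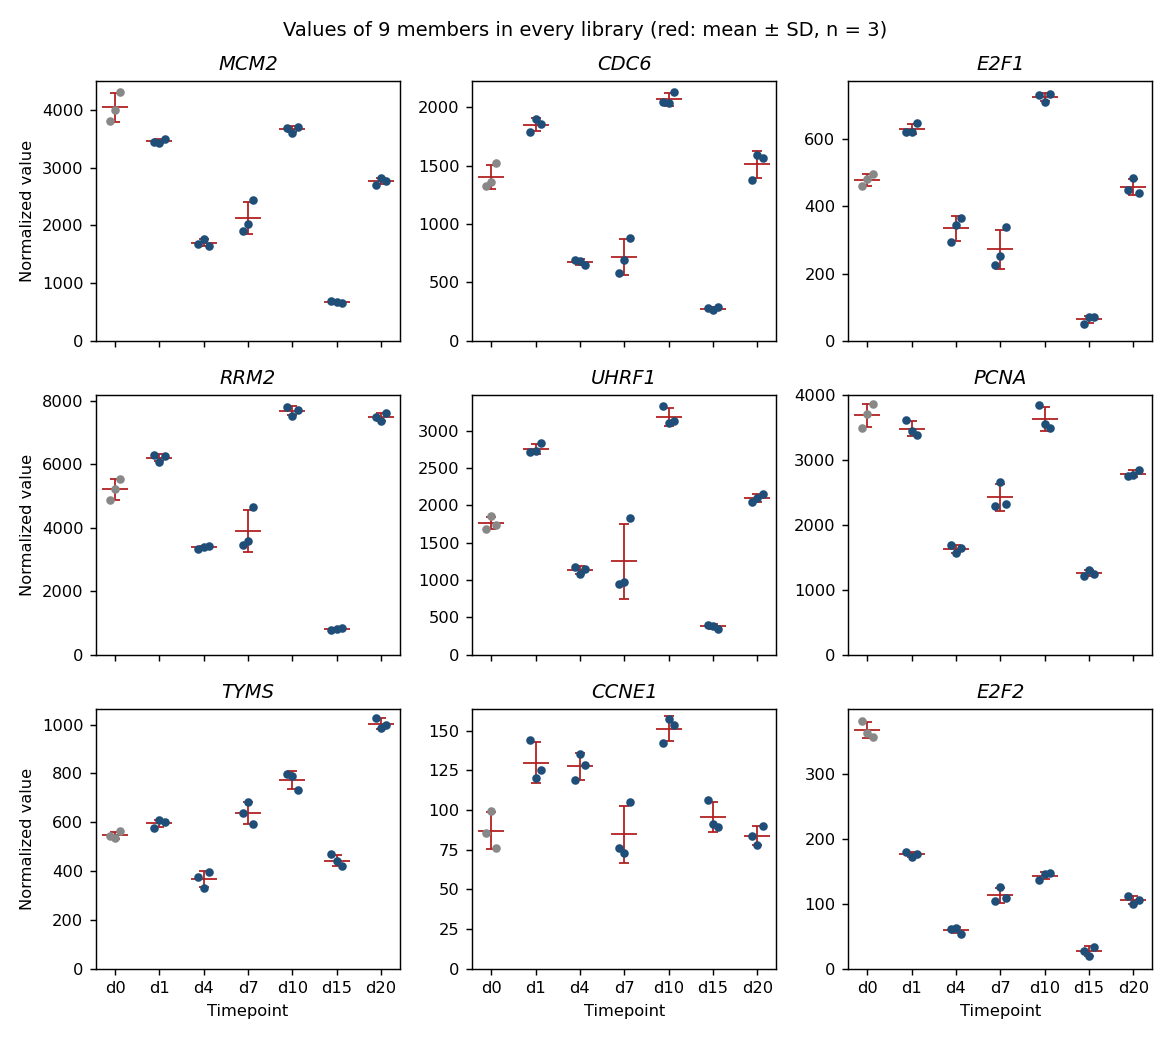
Normalized values (reads divided by the size factor) of 9 members in every library, with grey points for untreated and blue points for treated cells, and red marks for the mean ± SD of 3 libraries. MCM2, CDC6, E2F1, RRM2 and UHRF1 are lowest at d15, TYMS and CCNE1 are not, and E2F2 stays below its untreated values on all treated days.

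Day 15 was the low point. Against d0, 45 of 46 members were lower and 0 higher, with 37.3% and 39.2% of all genes as background, and 41 were lower by at least 2-fold against 8.66%. From d10 to d15 all 46 fell and 0 rose (40.5% and 39.3% of all genes), 41 by at least 2-fold against 10.2%. Both counts of lower members were unchanged by each scaling, by edgeR and DESeq2 on the recovered reads and by leaving out any 1 library. Medians of the fall differed by role, and the differences between roles were not tested. Ranges within roles were wide, from -3.74 to 0.14 for the 4 G1/S control genes and from -3.21 to -0.78 for the 8 polymerase and primase genes. Lagging strand joining held only 2 genes, as did fork checkpoint and CDT1 turnover. Log2 medians against d0 were -2.77 for helicase activation, -2.72 for fork checkpoint and CDT1 turnover, -2.46 for G1/S control, -2.18 for origin licensing, -2.03 for lagging strand joining, -1.82 for chromatin and histone supply, -1.74 for nucleotide supply, -1.55 for the clamp and clamp loader, and -1.46 for polymerases and primase.

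**Figure D4:**
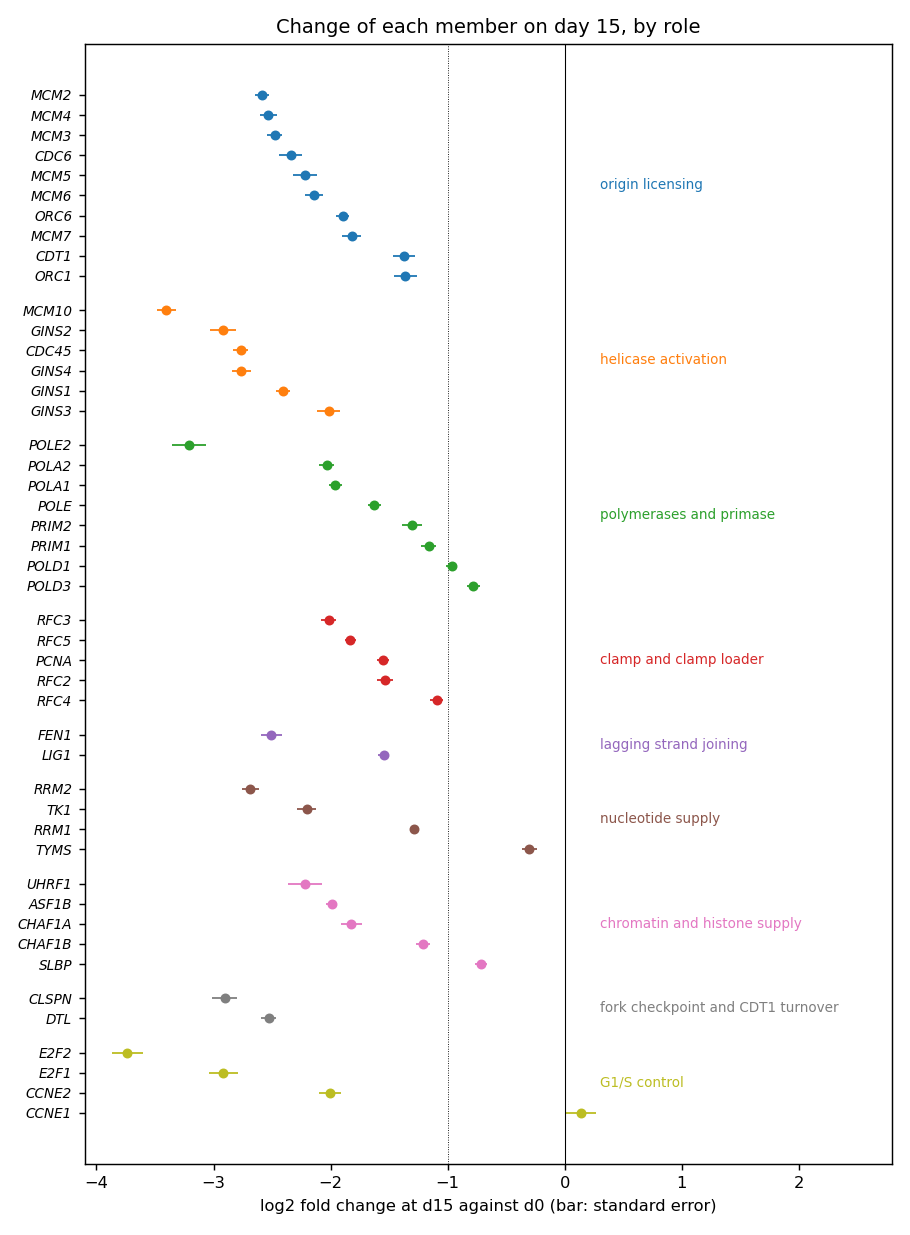
Log2 fold change at d15 against d0 for the 46 members, grouped by role, with bars for the standard error and a dotted line at a 2-fold decrease. All 6 helicase activation genes lie at or below -2.02, whereas POLD1, POLD3, TYMS and SLBP lie between the dotted line and 0 and CCNE1 lies at 0.14.

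Origin licensing genes all fell by at least 2-fold at d15. MCM2, a subunit of the MCM ring, had values of 3817, 4008 and 4321 at d0, 3689, 3609.9 and 3702 at d10 and 696, 664 and 658 at d15, a 6.01-fold decrease from d0 (log2 -2.59 ± 0.062 SE, limma adjusted p = 3.77e-19). The other 5 subunits of the ring moved with it, between -2.53 (MCM4) and -1.82 (MCM7). CDC6 went from 1328, 1358 and 1519 at d0 to 281, 260.5 and 285 at d15 (-2.34 ± 0.096 SE, limma adjusted p = 3.04e-15). The d15 values of both genes were below all other libraries of the series. CDT1, the partner of CDC6 in loading, fell less, from 1115, 1288 and 1134 to 463, 413 and 487 (-1.37 ± 0.092 SE), and had the narrowest range of the licensing genes over the time course, log2 1.37 between its highest and lowest timepoint. ORC1 fell by a similar amount (-1.36 ± 0.096 SE) and ORC6 by more (-1.90 ± 0.056 SE).

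Helicase activation genes had the lowest role median at d15 against d0, close to that of the fork checkpoint and CDT1 turnover pair, which fell further from d10 (-3.32 against -2.92). MCM10 held 748, 740.5 and 815 at d0 and 67.3, 78.7 and 69.4 at d15, a 10.6-fold decrease (-3.40 ± 0.079 SE, limma adjusted p = 2.31e-19). Its d10 values were 14.7-fold above those of d15, the widest range of the 46 members. CDC45, the helicase partner of MCM and GINS, went from 1031, 1031 and 1071 to 166, 144 and 148 (-2.77 ± 0.062 SE). The GINS subunits fell together, from -2.92 for GINS2 to -2.02 for GINS3, which had the narrowest range of the role.

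Polymerase genes were uneven. POLE2, the second subunit of polymerase epsilon, went from 330.2, 355 and 392 at d0 to 35.7, 48.8 and 31.1 at d15 (-3.21 ± 0.15 SE, limma adjusted p = 1.94e-14), while POLE, its catalytic subunit, fell by 1.62. POLD3, an accessory subunit of polymerase delta, went only from 1088, 981 and 987 to 592, 621 and 562 (-0.78 ± 0.056 SE), and POLD1, the catalytic subunit, fell by 0.97. Both were thus short of 2-fold although their d15 libraries did not overlap those of d0. The primase subunits PRIM1 and PRIM2 fell by 1.16 and 1.30, and POLA1 and POLA2, of polymerase alpha, by 1.96 and 2.04.

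The clamp and its loader fell less, by their median, than the helicase activation genes. PCNA went from 3503, 3707 and 3865 at d0 to 1214, 1304 and 1250.3 at d15 (-1.55 ± 0.053 SE). Among the RFC subunits that load it, RFC3 fell most (-2.02 ± 0.062 SE) and RFC4 least (-1.10 ± 0.058 SE). RFC4 values were 1346, 1354 and 1385 at d0 and 603, 657 and 652 at d15. For joining the lagging strand, FEN1 went from 1461, 1601 and 1814 to 289, 252 and 314 (-2.51 ± 0.089 SE) and LIG1, DNA ligase I, from 1757, 1861 and 1961 to 621, 620.5 and 667 (-1.55 ± 0.046 SE). FEN1 was called above d0 at d1, d10 and d20, whereas LIG1 was never called above d0.

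Nucleotide supply genes covered the widest spread at d15 outside G1/S control and polymerases. RRM2, the small ribonucleotide reductase subunit whose level follows S phase, went from 4882, 5227 and 5539.6 at d0 to 779, 800.5 and 849 at d15 (-2.69 ± 0.072 SE, limma adjusted p = 2.18e-18). RRM1, its partner, went from 3328, 3308 and 3561 to 1404, 1356 and 1425 (-1.28 ± 0.036 SE). TK1, thymidine kinase 1, fell by 2.20. TYMS departed from the others: its values of 543, 534 and 563 in untreated cells went to 377, 332 and 397 on d4, 796, 791 and 730.5 on d10, 468, 440.5 and 421 on d15 and 1028, 984 and 999 on d20. All its d15 libraries lay above its d4 libraries, and its change from d0 was -0.30 ± 0.064 SE (limma adjusted p = 0.000208).

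In chromatin and histone supply, UHRF1 went from 1691, 1853 and 1744 at d0 to 403, 387 and 345 at d15 (-2.22 ± 0.15 SE). SLBP, which binds the stem-loop of histone mRNAs, went from 1565, 1566 and 1667 to 964, 997 and 962 (-0.71 ± 0.05 SE), the smallest fall of the role, and its range over the time course was the smallest of the 46 members, 1.75-fold. CHAF1A and CHAF1B, subunits of the chromatin assembly factor CAF-1, fell by 1.82 and 1.21, and ASF1B by 1.99. CLSPN went from 631, 612 and 646 to 102, 81.4 and 69.4 (-2.90 ± 0.11 SE, limma adjusted p = 3.94e-16). DTL, the adaptor that directs CDT1 to degradation in S phase, went from 1534, 1415 and 1404 to 254, 244 and 253 (-2.53 ± 0.062 SE).

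The G1/S regulators held both the largest fall and the only member without one. E2F1, an activating E2F, had values of 460.1, 481 and 497 untreated, 621, 623 and 649 on d1 and 293, 346 and 364 on d4. They were 733, 712 and 734 on d10, 49.98, 69.6 and 70.4 on d15 and 450.5, 484 and 439 on d20. Its d15 change from d0 was -2.92 ± 0.12 SE (limma adjusted p = 4.76e-15) and at d20 it was -0.067 ± 0.12 SE (limma adjusted p = 0.654). E2F2, another activating E2F, had values of 381, 363 and 356 untreated, 61.00, 63.3 and 53.9 on d4 and 104, 126 and 109 on d7. Later they were 136, 146 and 147 on d10, 27.5, 19.9 and 34.2 on d15 and 111, 99.98 and 106 on d20. It was lower than d0 on all 6 treated days, and every treated library lay below every untreated one. The d15 decrease was 13.3-fold (-3.74 ± 0.13 SE, limma adjusted p = 2.96e-16), and at d10, when E2F1 was above d0, E2F2 was 2.56-fold below it.

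Members with and without the E2F motif in their promoter window both fell at d15. The 22 with a match were all lower, with log2 changes from -3.74 (E2F2) to -0.30 (TYMS) and a median of -2.18. Of the 19 without a match 18 were lower, from -3.40 (MCM10) to 0.14 (CCNE1), with a median of -1.54. At d10 the medians were 0.15 and 0.21, with 10 members higher in each set and 1 and 3 lower. Of all genes tested 37.3% were lower at d15, and 37.0% were higher and 30.7% lower at d10. The ranges of the sets overlapped at both timepoints, and the difference between them was not tested.

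Cyclin E genes, whose products activate CDK2 at the start of S phase, differed from each other. CCNE1 values were 85.4, 99.2 and 76.2 untreated, 144, 120.0 and 125 on d1, 119, 135 and 128 on d4 and 75.98, 72.98 and 105 on d7. They were 142, 157 and 154 on d10, 106, 91.4 and 89.1 on d15 and 83.7, 77.9 and 90.1 on d20. The gene was called higher at d1, d4 and d10 and had no call at d7, d15 or d20. At d15 its difference from d0 was 0.14 ± 0.13 SE (limma adjusted p = 0.347), with overlapping libraries, although it fell from d10 (-0.66 ± 0.13 SE). CCNE2 instead went from 275, 262 and 271 at d0 to 57.1, 65.1 and 78.7 at d15 (-2.00 ± 0.091 SE, limma adjusted p = 1.67e-14), and the 2 genes also had opposite calls at d4 (CCNE2 -1.02 ± 0.091 SE).

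From day 15 to day 20 the group recovered. Of the 46 members 45 rose and 0 fell, against 37.7% and 36.3% of all genes, and 39 rose by at least 2-fold against 7.55%. CCNE1 was the exception (-0.18 ± 0.13 SE, limma adjusted p = 0.214). RRM2 rose most, from 779, 800.5 and 849 to 7484, 7350.3 and 7607 (3.21 ± 0.072 SE), followed by MCM10 (3.15 ± 0.079 SE) and CLSPN (3.09 ± 0.11 SE). PRIM1 and SLBP rose least, by 0.56 and 0.57.

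The calls against untreated cells at d20 were mixed. Against d0, 23 members were lower and 6 higher, with 30.2% and 32.5% of all genes as background, and 17 had no call. The 6 above d0 were POLA2, PRIM2, FEN1, RRM2, TYMS and TK1, so 3 of 4 nucleotide supply genes were above untreated cells. TYMS rose most (0.88 ± 0.064 SE, limma adjusted p = 1.08e-10) and its d20 libraries were the highest of the series. Below d0 were 5 of 10 licensing genes, 5 of 6 helicase activation genes, 4 of 8 polymerase and primase genes and 4 of 5 clamp genes. MCM2 was at 2709, 2828 and 2776 (-0.55 ± 0.062 SE), PCNA at 2752, 2770.1 and 2854 (-0.40 ± 0.053 SE) and PRIM1 at 456, 476 and 513 (-0.60 ± 0.064 SE). CDC6, UHRF1, CLSPN, DTL and E2F1 had no call against d0. With equal totals the split was 2 higher and 34 lower with a member median of -0.388. With quantile normalization it was 3 and 31 with a median of -0.269. Among the 13343 genes tested 2661 were higher and 6778 lower with equal totals, and 3570 and 4959 with quantile normalization. RRM2 and TYMS kept their calls under both scalings, whereas POLA2, PRIM2 and TK1 lost theirs under both and FEN1 with equal totals.

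**Figure D5:**
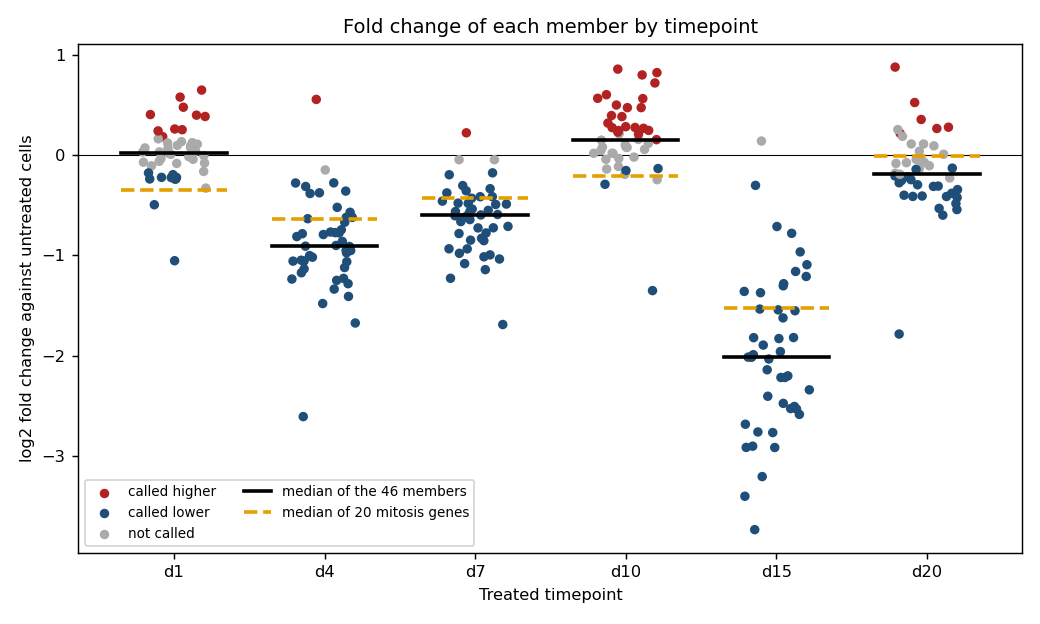
Log2 fold change of each of the 46 members against d0 at the 6 treated timepoints, coloured by call, with black lines for the member median and dashed orange lines for the median of 20 mitosis genes. Member medians run from -2.01 at d15 to 0.15 at d10, and the mitosis medians are -1.52 at d15 and -0.21 at d10.

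Related genes outside the 46 were counted as lists, with the background percentages above. Of 31 other replication genes tested, 29 were lower and 1 higher at d15 (median -1.04), 27 and 2 at d4 (-0.50), and 7 lower and 10 higher at d10 (0.063). Those that fell at d15 included HELLS (-2.88), DUT (-2.20) and DSCC1 (-2.13), while POLD4, the small subunit of polymerase delta, was the 1 that rose (1.23). Of 16 other genes of the E2F and RB axis, 10 were lower and 2 higher at d15 (median -0.62), with the largest changes in CDC25A (-2.03), E2F8 (-1.98), CCNA2 (-1.82) and TFDP1 (-1.50). At d1, when 10 members were higher, 10 lower and 26 had no call, 16 of 20 mitosis genes were lower and 0 higher (median -0.346). The 20 mitosis genes were all lower at d4, d7 and d15 with medians of -0.64, -0.43 and -1.52. At d10 the mitosis genes had 12 lower and 1 higher with a median of -0.21, and at d20 they had 3 lower and 2 higher with a median of -0.011. A test of the difference between the lists was not made.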

How the data were processed

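RNA of 21 HMLE libraries, 3 at each of 7 timepoints, had been extracted with Trizol and sequenced. The authors deposited 1 normalized signal per gene symbol and library. The values are whole reads divided by a size factor per library, since dividing by the value of 1 read gave whole numbers for 100.0% of the values. The tolerance was 0.0051 in normalized units, slightly more for large values. Such scaling assumes that most genes do not change and sets the direction of small differences. The submitters' processing notes name STAR 2.7, Salmon 1.4 and hg19, without their roles. Columns carried the timepoint but no replicate number, so libraries are numbered in column order.

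The 13343 genes whose mean over the 21 libraries reached a value of 10 entered a single limma fit (version 3.58.1, R 4.3.3) on log2(value + 1), with 1 mean per timepoint and moderated statistics from eBayes with a mean-variance trend. Each treated timepoint was compared with d0 and each treated timepoint with the next, and p-values were adjusted over all genes within a comparison. The comparisons with d0 share its 3 libraries. P-values measure the spread between these libraries. Scripts were tested on simulated data.

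The 46 members and the other gene lists were chosen with earlier results of these data known. Members are named as the widest and narrowest range in each role, 10 regulators and enzymes chosen by name, and any member called against the majority. Others are named where a count or a single value turns on them, which was decided after their values were seen. Of the genes reported here, up to 4 of each other list are named by size of change, with POLD4 added as the 1 of its list that rose. TICRR, of the other replication genes, matched no symbol. The values of another gene of that list are not reported here. The results were recomputed with quantile normalization, with equal library totals, with a pseudocount of 10, without the filter, with a fit of 2 timepoints only, with a 2-fold minimum, without each library in turn, and on the recovered reads with edgeR 4.0.16 and DESeq2 1.42.0. Promoter windows are from RefSeq (GRCh38.p14).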

Additional observations from a re-analysis of the deposited data

Results flagged for a closer look

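Members that were called higher than untreated cells on 1 treated day and lower on another were singled out, because the 2 days differ in direction. There were 22 such members of 46, with log2 differences between the 2 days of 1.28 to 3.87. The 2 days were the highest and the lowest called day of each member. A difference between them therefore follows from the choice, and no p-value is given for it. Among the named members, d10 exceeded d15 by 3.87 for MCM10, 3.72 for CLSPN, 3.52 for E2F1, 3.25 for RRM2, 3.22 for FEN1, 3.07 for UHRF1, 2.92 for DTL, 2.91 for CDC6, 2.51 for POLA2, 2.39 for CCNE2 and 2.29 for GINS3. For ORC1 the higher day was d1, which exceeded d15 by 1.62. For PRIM2 and TK1 it was d20, which exceeded d15 by 1.57 and 2.48, and for TYMS d20 exceeded d4 by 1.45. The side above d0 was the smaller one for each of these except TYMS, and with equal totals ORC1, GINS3, PRIM2, TK1 and CCNE2 had no call above d0 on those days. The 22 were reduced to 10 with equal totals, where ORC6, MCM7, GINS1, GINS4, POLD1, RFC2 and CHAF1A also lost each call above d0, and to 13 with quantile normalization. The share of all genes that meet the same rule was not counted. Whether these counts are unusual therefore cannot be told. Groups of 3 libraries were too small to be tested for single outlying values.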

How the results depend on the processing

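The counts of lower members at d4 and d15 against d0, and of members that moved from d1 to d4, d10 to d15 and d15 to d20, stayed within 1.5 times under every change of scaling, filter, pseudocount, tool and left-out library, apart from the 2-fold minimum for d4 and for d1 to d4. Rescaling to equal totals gave 3 higher and 25 lower at d1, 0 higher at d7, 11 higher and 18 lower at d10 and 2 higher at d20, and turned the member median to -0.172 at d1 and -0.074 at d10, GINS1 to -0.012 at d1 and -0.075 at d10, and RFC2 to -0.02 at d10. Quantile normalization gave 16 lower at d1, 14 higher and 12 lower at d10 and 3 higher at d20. The counts of all genes under both scalings are given above for d1, d10 and d20. At d7 with equal totals 3035 of 13343 genes were higher. With only the 2 timepoints in the fit, 8 were lower at d10 and 1 from d4 to d7, against 4408 and 2203 of all genes. At d10 edgeR gave 8 lower and DESeq2 7, against 4491 and 4014 of all genes. A 2-fold minimum left 0 members higher on d1, d4, d7, d10 and d20, and 1, 18, 6, 1 and 1 lower on those days. Of all genes 863, 1292, 1173, 926 and 1002 were then higher, and 517, 671, 391, 979 and 630 lower. The same minimum left 19 members lower from d1 to d4 and 14 higher from d7 to d10. From d4 to d7 it left 0 higher and 0 lower, against 303 and 201 of all genes. Leaving out 1 library, lower members ranged from 1 to 10 from d4 to d7, the value of 10 being without the third d7 library. In all, 276 of 308 counts stayed within 1.5 times. Of 6578 values of single members, 6303 kept their call and, where called, their direction. Values without a call in either setting were counted as kept even where the sign changed. No paired analysis was possible because the replicate numbers of the labels do not appear in the column names. Equal totals rescale each library by its sum of values. That sum was 18266631 to 18648067 at d0 and 20502270 or more in each treated library, so the rescaling lowers treated values relative to d0. Apart from the construction of this rescaling, of the 2-fold minimum and of fewer libraries, the cause of these changes was not tested. Depth limits E2F2 and POLE2 most, since their d15 values rest on the fewest reads among the members.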
